A study of Mus musculus with 12 samples.

Results

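The BCL-2 family members described here are 10 genes that control whether mitochondria release the proteins that start apoptosis: Bcl2, Bcl2l1, Mcl1, Bax, Bak1, Bad, Bid, Bcl2l11, Bnip3 and Bnip3l. They were chosen by gene symbol among the 55487 genes of a table of mouse heart expression, and each symbol was found on a single row. All 10 passed the filter for testing, which asked for 3 or more libraries with an FPKM of at least 1. FPKM is the number of sequenced fragments scaled to transcript length and library total, so levels can be set side by side between genes. In none of 7 comparisons did a member pass the test, limma on log2(FPKM + 1) with an adjusted p under 0.05 over 13001 genes. With library weights estimated by limma, whose estimation did not converge, up to 6 members passed in a comparison, where 33.9% of all genes did. What follows is therefore mainly a description of levels and of their spread.

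The libraries came from wild-type mouse hearts in 4 groups of 3. The Sham group had the chest opened with no artery occluded and drank normal water. The Sham+B12 group had the same operation after 7 days of vitamin B12 in the drinking water at 50 mg/L. Water intake was 4 mL per day in all 4 groups. The I/R group drank normal water and had the left anterior descending coronary artery occluded for 45 min and then released, with tissue taken after 24 h of reperfusion. The I/R+B12 group had both the B12 water and the occlusion. The labels name heart and no region of it, and give no strain, age or sex. Mice were assigned to groups at random, but nothing in the labels ties each library to its own mouse, so p-values measure the spread between these libraries only.

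Members of the family share short helical motifs, the BCL-2 homology (BH) domains. The anti-apoptotic proteins bind the exposed BH3 helix of their partners, the effectors BAX and BAK assemble in the outer mitochondrial membrane and let cytochrome c out, and the BH3-only proteins carry stress signals to both. BNIP3 and BNIP3L are outer-membrane receptors that recruit autophagosomes to mitochondria, and Bnip3 is a textbook target of the hypoxia-inducible factors. In cardiac muscle, which is packed with mitochondria, the family is studied for its part in cell loss after ischemia and reperfusion.

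Depth was estimated at 24.8 to 29.0 M fragments per library, and 11490 to 12612 genes per library reached an FPKM of 1. Libraries did not sort cleanly by group: 8 of 12 correlated best across genes with a library of another group. Among these, I/R 3 was nearest to Sham 2 (r = 0.982) and Sham 3 to I/R+B12 1 (r = 0.969). The mean r with the own group was 0.955 for I/R 3 and 0.962 for Sham 3, and it was lower still in the I/R+B12 libraries, at 0.941 to 0.947. Results are also given without Sham 3 and I/R 3, a pair chosen with earlier results known. The 8 cardiomyocyte markers, the muscle genes of the labelled tissue, summed to 54735 to 61804 FPKM in Sham, 58084 to 62491 in Sham+B12, 39430.4 to 55274 in I/R, and 42864 to 60762 in I/R+B12. The 3 lowest sums were those of I/R 1, I/R 2 and I/R+B12 1. The 7 neutrophil markers summed to 6.19 to 62.7 FPKM in Sham, 0.67 to 34.1 in Sham+B12, 14.7 to 1225 in I/R and 97.0 to 1960.3 in I/R+B12. The low value in the I/R group was that of I/R 3, inside the Sham range. Ly6g was listed at 0 in 5 libraries, and S100a9, Cxcr2, Retnlg and Mmp8 each in 1. The 7 monocyte and macrophage markers summed to 231 to 539 FPKM in Sham, 233 to 485 in Sham+B12, 466 to 791 in I/R and 139 to 402 in I/R+B12. They did not all move together. Against I/R, 6 of the 7 were lower in I/R+B12 and 1 was higher, Cd14 (88.6 ± 93.6 against 36.9 ± 23.2 FPKM, SD, n = 3). Against Sham+B12, 3 were higher and 4 lower. The 6 fibroblast markers summed to 466 to 658 FPKM in Sham, 397 to 484 in Sham+B12, 579 to 672 in I/R, and 339 to 388 in I/R+B12. In bulk tissue, fewer cells of a type and less RNA per cell cannot be told apart, and the part of these cell types in the values below was not tested.

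The feature that makes these genes a family can be read in their coding sequence, and 7 of the 10 are shown because the results below turn on them or because they show how the motif varies. Each line holds 33 bases, or 11 codons, of the BH3 region on the coding strand, 5′ to 3′, from GENCODE M21 transcripts on mm10. Capitals mark the codon of the conserved leucine and, after 3 further codons, the codon of a glycine (a serine in Bad and Bnip3) with that of the invariant aspartate.
Bcl2: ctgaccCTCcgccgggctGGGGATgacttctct
Bcl2l1: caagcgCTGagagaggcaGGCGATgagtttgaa
Mcl1: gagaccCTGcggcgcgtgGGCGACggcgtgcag
Bax: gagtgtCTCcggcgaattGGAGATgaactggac
Bid: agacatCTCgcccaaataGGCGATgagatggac
Bad: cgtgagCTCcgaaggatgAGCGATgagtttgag
Bnip3: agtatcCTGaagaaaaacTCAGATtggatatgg
The aspartate codon was GAT in 6 of these and GAC in Mcl1. The same search found the motif in Bak1 and Bcl2l11 and did not find these letters in Bnip3l. The Bcl2 window lies at chr1:106712575-106712607 in exon 1, that of Bcl2l1 at chr2:152829697-152829729 in exon 2, and that of Mcl1 at chr3:95659430-95659462 in exon 1. The Bax window lies at chr7:45465997-45466029 in exon 3 and that of Bid at chr6:120897289-120897321 in exon 4. Those of Bad and Bnip3 are at chr19:6950786-6950818 in exon 3 and chr7:138894645-138894677 in exon 4. Mcl1 and Bad are on the plus strand and the other 5 on the minus strand.

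Levels per length spanned a wide range. Bnip3 was the most abundant member, with a mean of 157 FPKM over the 12 libraries (range 90.0 to 219.7), above 95.9% of tested genes. Mcl1 followed at a mean of 60.8 FPKM, then Bcl2l1 at 39.3, Bax at 36.1, Bnip3l at 34.0, Bad at 29.4 and Bak1 at 16.5. Bcl2l11 had a mean of 4.33 FPKM, Bid 1.25 and Bcl2 0.993. Bcl2, the gene that gave the family its name, was thus the least abundant of the 10 and reached an FPKM of 1 in 4 of 12 libraries, and Bid did so in 7. Ranges over the libraries did not overlap between Bnip3 and Mcl1, between Bak1 and Bcl2l11, or between Bcl2l11 and Bid. The ranges of all other neighbours in this order overlapped. Within a library, Bad still lay above Bak1 in every case, and Mcl1 above Bcl2l1 in all but I/R+B12 3. The remaining neighbours changed places between libraries, so their order is not separated from the spread.

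**Figure D1:**
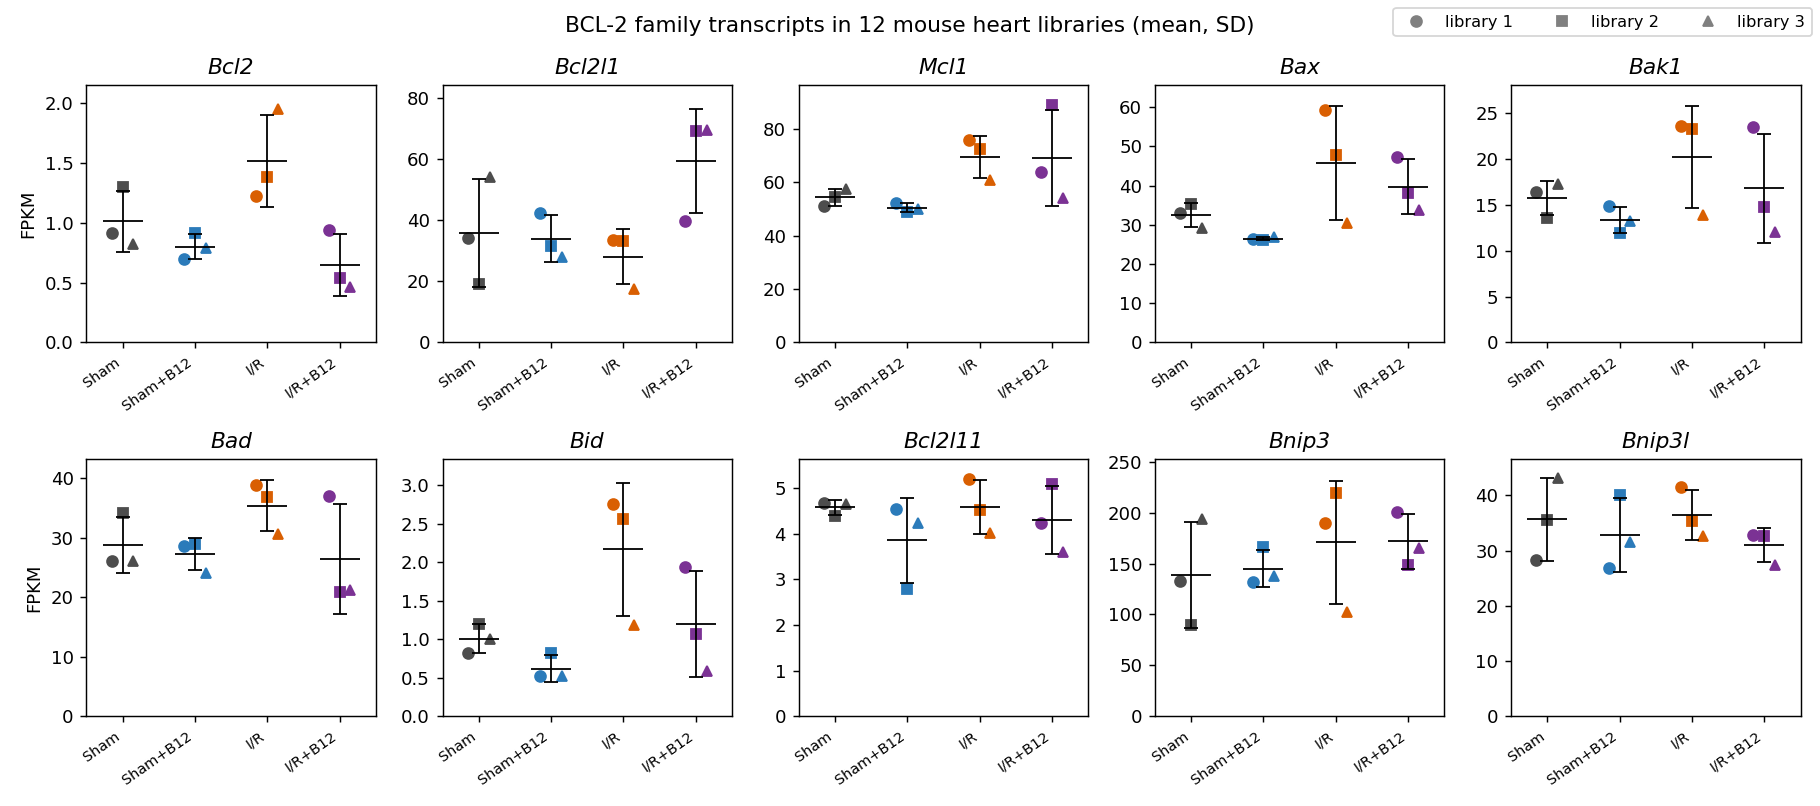
Level of each of the 10 members in FPKM (vertical axes, linear from 0, with a scale of their own) in the 4 groups; points are libraries, horizontal bars the mean and whiskers the SD of 3 libraries. The I/R+B12 libraries lie above the I/R libraries for Bcl2l1 (39.7 to 69.5 against 17.6 to 33.4 FPKM) and below them for Bcl2 (0.46 to 0.94 against 1.22 to 1.95 FPKM).

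The members also differed in how steady they were. The coefficient of variation over the 12 libraries was 15.0% for Bcl2l11, 15.9% for Bnip3l, 20.3% for Mcl1 and 20.9% for Bad. It was 25.5% for Bnip3, 26.8% for Bak1 and 28.6% for Bax. Bcl2 (41.6%), Bcl2l1 (43.3%) and Bid (61.3%) were the most variable. At the estimated depth the longest transcript of Bcl2 would hold 89 to 354 fragments per library, with a counting error of 5.3% to 10.6%, and that of Bid 28 to 149 fragments, with an error of 8.2% to 19.1%. These errors cover counting only.

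Among the anti-apoptotic members, Bcl2l1 and Bcl2 lay on opposite sides of the I/R group when B12 had been given. Bcl2l1 (ENSMUSG00000007659, chr2:152780668-152831728, minus strand) encodes BCL-XL, which holds BAX and BAK in check at the outer membrane. Its level was 34.0, 19.2 and 54.2 FPKM in Sham 1, 2 and 3, and 42.4, 31.4 and 28.0 in Sham+B12. It was 33.4, 33.0 and 17.6 FPKM in the I/R libraries, and 39.7, 69.0 and 69.5 in the I/R+B12 libraries. All 3 I/R+B12 libraries lay above all 3 I/R libraries, while the Sham libraries, from 19.2 to 54.2 FPKM, overlapped both groups. Group means were 35.8 ± 17.6, 33.9 ± 7.55, 28.0 ± 9.03 and 59.4 ± 17.0 FPKM (SD, n = 3) in Sham, Sham+B12, I/R and then I/R+B12.

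Bcl2 (ENSMUSG00000057329, chr1:106538178-106714274, minus strand) encodes BCL-2 itself, which keeps pro-apoptotic partners bound at mitochondria and the endoplasmic reticulum. Its level was 0.91, 1.30 and 0.82 FPKM in Sham and 0.70, 0.91 and 0.79 in Sham+B12. It was 1.22, 1.38 and 1.95 FPKM in the I/R libraries and 0.94, 0.54 and 0.46 in the I/R+B12 libraries. The I/R and I/R+B12 libraries did not overlap, and the highest library of all was I/R 3, whose neutrophil markers were low. Group means were 1.01 ± 0.255, 0.800 ± 0.105, 1.52 ± 0.384 and 0.647 ± 0.257 FPKM (SD, n = 3).

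Mcl1 (ENSMUSG00000038612, chr3:95658788-95663176, plus strand) encodes a short-lived anti-apoptotic protein that cardiac muscle is known to need. Its level was 51.1, 54.5 and 57.3 FPKM in Sham and 52.2, 49.0 and 50.0 in Sham+B12, the tightest pair of groups for this gene. It was 75.6, 72.4 and 60.6 FPKM in the I/R libraries and 63.8, 88.9 and 54.2 in the I/R+B12 libraries. Every I/R library lay above every Sham library, and every I/R+B12 library above every Sham+B12 library, although I/R+B12 3 was inside the Sham range. Group means were 54.3 ± 3.08, 50.4 ± 1.66, 69.5 ± 7.87 and 69.0 ± 17.9 FPKM (SD, n = 3).

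Of the effectors, Bax was the more abundant and the more clearly separated under B12. Bax (ENSMUSG00000003873, chr7:45461697-45466898, minus strand) moves from the cytosol to mitochondria when activated. Its level was 33.1, 35.2 and 29.2 FPKM in Sham and 26.3, 26.2 and 26.9 in Sham+B12. It was 59.2, 47.7 and 30.4 FPKM in the I/R libraries and 47.3, 38.1 and 33.8 in the I/R+B12 libraries. The Sham+B12 libraries were the 3 lowest of the 12, below every Sham and every I/R+B12 library, while I/R 3 overlapped Sham. Group means were 32.5 ± 3.07, 26.5 ± 0.331, 45.8 ± 14.5 and 39.8 ± 6.90 FPKM (SD, n = 3).

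Bak1 (ENSMUSG00000057789, chr17:27019810-27029009, minus strand) encodes the effector that resides in the outer membrane. Its level was 16.4, 13.6 and 17.2 FPKM in Sham, 14.8, 11.96 and 13.3 in Sham+B12, 23.5, 23.2 and 13.8 in the I/R libraries, and 23.5, 14.8 and 12.04 in the I/R+B12 libraries. I/R 1, I/R 2 and I/R+B12 1 were high and the other 9 libraries lay between 11.96 and 17.2 FPKM, so no pair of groups was separated. Bax made up 67.3%, 66.5%, 69.2% and 70.9% of the summed effector level, on average, in Sham, Sham+B12, I/R and then I/R+B12.

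The BH3-only members ranged from abundant to low in level. Bad (ENSMUSG00000024959, chr19:6941861-6951899, plus strand), a sensitizer that is kept inactive by phosphorylation, stood at 26.1, 34.2 and 26.04 FPKM in Sham and 28.6, 29.0 and 24.1 in Sham+B12. It stood at 38.8, 36.7 and 30.6 FPKM in the I/R libraries and 37.1, 20.9 and 21.2 in the I/R+B12 libraries. The I/R+B12 group was split, with I/R+B12 1 among the highest libraries and the other two the lowest of all.

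Bid (ENSMUSG00000004446, chr6:120891930-120916853, minus strand) encodes a protein that caspase cleavage turns into an activator of BAX and BAK. Its level was 0.82, 1.20 and 1.00 FPKM in Sham and 0.52, 0.82 and 0.52 in Sham+B12. It was 2.76, 2.56 and 1.18 FPKM in the I/R libraries and 1.94, 1.07 and 0.59 in the I/R+B12 libraries. The libraries I/R 1, I/R 2 and I/R+B12 1, which were high for Bak1, were also the 3 highest for Bid and the 3 lowest for cardiomyocyte markers, whose part in this was not tested, and I/R 3 lay just below Sham 2.

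Bcl2l11 (ENSMUSG00000027381, chr2:128126038-128162547, plus strand) encodes BIM, an activator that binds all anti-apoptotic members. Its level was 4.68, 4.4 and 4.66 FPKM in Sham, 4.54, 2.80 and 4.23 in Sham+B12, 5.21, 4.53 and 4.03 in the I/R libraries, and 4.23, 5.09 and 3.61 in the I/R+B12 libraries. All groups overlapped, and Sham+B12 2 was the lowest library. Its fitted difference between I/R and Sham was -0.00 on the log2 scale.

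Of the mitophagy receptors, Bnip3 (ENSMUSG00000078566, chr7:138890836-138909519, minus strand) was the more abundant in every library. Its level was 133, 90.0 and 194 FPKM in Sham and 132, 166 and 137 in Sham+B12. It was 190, 219.7 and 103 FPKM in the I/R libraries and 201, 149 and 166 in the I/R+B12 libraries. All groups overlapped: Sham 3 lay above I/R 1, and I/R 3 was the second lowest library. Without Sham 3 and I/R 3, Bnip3 was called in I/R against sham hearts over both waters, as were 18.1% of all genes. With all libraries it was called there only with library weights, whose estimation did not converge and where 36.4% of all genes were called.

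Bnip3l (ENSMUSG00000022051, chr14:66985239-67008877, minus strand), which encodes NIX and is best known for clearing mitochondria from maturing red cells, was 28.2, 35.6 and 43.2 FPKM in Sham and 26.9, 40.1 and 31.6 in Sham+B12. It was 41.5, 35.4 and 32.6 FPKM in the I/R libraries and 32.9, 32.7 and 27.4 in the I/R+B12 libraries. These groups overlapped throughout. The ratio of Bnip3 to Bnip3l averaged 3.91, 4.46, 4.64 and 5.57 in Sham, Sham+B12, I/R and then I/R+B12.

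The promoter of Bnip3 is shown because the gene was the most abundant member and its known regulators bind a short core. Only the form ACGTG of that core was searched, on both strands of the 250 bases before each RefSeq transcription start (GRCm38.p6). In these windows 9 of the members were found. That form occurred in Bnip3 and Bax and, of all 32851 windows searched, in 16.6%. Other forms of the core were not searched. In Bnip3 the match is the palindrome in capitals below, which holds ACGTG on either strand. The 30 bases shown lie 120 to 91 bases before the start, at chr7:138909597-138909626 on the minus strand.
Bnip3: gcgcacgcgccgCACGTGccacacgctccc
A match is a description of the letters only, and a window without one says nothing about the factor.

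The comparison of I/R with Sham asks what occlusion and reperfusion did on normal water. Of the 10 members, 8 were higher and 2 lower in I/R, and 69.1% of all tested genes were higher. The members' median difference was 0.30 on the log2(FPKM + 1) scale, against 0.13 over all tested genes. By limma, 0 members and 0% of all genes passed the adjusted threshold. Bid was the 1 member with an unadjusted p under 0.05, which 11.7% of genes reached, at a difference of 0.62 ± 0.26 (SE) and an adjusted p of 0.417. The other 9 members lay between -0.28 and 0.44, with adjusted p from 0.436 to 0.999. Mcl1 was the 1 member whose groups did not overlap, a separation found in 22.4% of tested genes. The difference of Bid was 0.87 without Sham 3 and I/R 3, with an adjusted p of 0.174.

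Between I/R+B12 and Sham+B12, the same operation under B12, 10.4% of genes were called and 0 members were. By limma, Bax was higher in I/R+B12 by 0.56 ± 0.21 (SE; adjusted p = 0.0982) and Mcl1 by 0.42 ± 0.17 (adjusted p = 0.111) on the log2 scale. An unadjusted p under 0.05 was reached by 32.3% of genes, and groups that did not overlap, as for these 2 members, by 32.4%, so 2 of 10 is no more than the background. The other 8 members lay between -0.14 and 0.77, the upper end being Bcl2l1, with adjusted p from 0.176 to 0.821. The members' median was 0.25 against -0.02 over all tested genes. Sham 3 and I/R 3 are not in this comparison and enter the fit only through the shared variance. Leaving them out gave Bax an adjusted p of 0.0377, with 13% of genes called. Bax was also called without I/R 3 alone (12% of genes called), and Mcl1 was called without I/R+B12 3 (12.3%).

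Over both waters, I/R hearts had higher levels than sham hearts for 9 of 10 members and for 56.7% of all tested genes. The members' median difference was 0.26 on the log2 scale, against 0.05 over all tested genes. Bax differed by 0.50 ± 0.15 (SE; adjusted p = 0.0552), Mcl1 by 0.38 ± 0.12 (adjusted p = 0.0587) and Bid by 0.51 ± 0.18 (adjusted p = 0.0864). These 3 members had an unadjusted p under 0.05, as did 31.3% of genes, and 10.1% of genes were called. The other 7 members lay between -0.01 and 0.28. Calls here depended on single libraries. Bax, Mcl1 and Bid were all called with I/R 3 left out, where 16.5% of genes were, and again with I/R+B12 3 left out (17.5%). Mcl1 alone was called without I/R+B12 1 (20.9% of genes). Without Sham 3 and I/R 3, where 18.1% of genes were called, the adjusted p was 0.012 for Bax, 0.0446 for Mcl1 and 0.0396 for Bid.

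The comparison of I/R+B12 with I/R addresses the effect of B12 in occluded hearts. By limma, Bcl2l1 was higher in I/R+B12 by 1.07 ± 0.37 (SE; adjusted p = 0.106) and Bcl2 lower, at -0.61 ± 0.18 (adjusted p = 0.0914), on the log2 scale. Neither was called, and neither was any of the 13001 genes (0%). Non-overlap, which both showed, was found in 23.2% of genes and an unadjusted p under 0.05 in 28.5%. The other 8 members lay between -0.53 and 0.07, with adjusted p from 0.182 to 0.904. In all, 8 of 10 members were lower and 2 higher, and 28.2% of all tested genes were higher. The members' median was -0.20, which is close to the -0.21 over all tested genes. Scaling the libraries by median ratios moved the all-gene median from -0.21 to 0.02, with Bcl2 then at -0.49 and Bcl2l1 at 1.33 on the log2 scale. Bcl2 was at -0.29 with quantile normalization (adjusted p = 0.273) and at -1.14 with a pseudocount of 0.1 (adjusted p = 0.0944). The fibroblast markers summed to 339 to 388 FPKM in I/R+B12 against 579 to 672 in I/R, and the 6 pericyte and smooth muscle markers to 221 to 288 against 312 to 363, and their part in these differences was not tested. Without I/R+B12 1, 4 members were called (Bcl2, Bcl2l1, Bad and Bid), as were 34.2% of all genes. Without Sham 3 and I/R 3 the difference was 0.78 for Bcl2l1 (adjusted p = 0.185) and -0.49 for Bcl2 (adjusted p = 0.181).

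In hearts with no occlusion, 0 members were called with B12. Between Sham+B12 and Sham, 8 members were lower and 2 higher, and 32.1% of all tested genes were higher. The members' median was -0.13 against -0.07 over all genes. Of all genes, 0% were called and 1.69% had an unadjusted p under 0.05, and 0 members reached either. The smallest limma p was that of Bax, at -0.28 ± 0.21 (SE; adjusted p = 0.999), the 1 member whose groups did not overlap (10.5% of genes). Over both operations, limma put Bcl2 lower with B12 at -0.38 ± 0.13 (adjusted p = 0.300) and Bid at -0.42 ± 0.18 (adjusted p = 0.307), among 15.9% of genes at an unadjusted p under 0.05 and 0% called. Without I/R+B12 1, 3 members were called there (Bcl2, Bad and Bid), as were 20.9% of all genes. The other 8 members lay between -0.26 and 0.54, the upper end being Bcl2l1, with adjusted p from 0.322 to 0.821.

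Whether the I/R difference itself depended on B12 was tested as the interaction. No member had an unadjusted p under 0.05, which 12.3% of genes reached, and 0% of genes were called. Bcl2l1 came nearest, with a limma interaction of 1.05 ± 0.52 (SE; adjusted p = 0.420) on the log2 scale. It was 0.40 without Sham 3 and I/R 3 (adjusted p = 0.761). The other 9 members lay between -0.46 and 0.14. The comparisons above share libraries with each other.

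**Figure D2:**
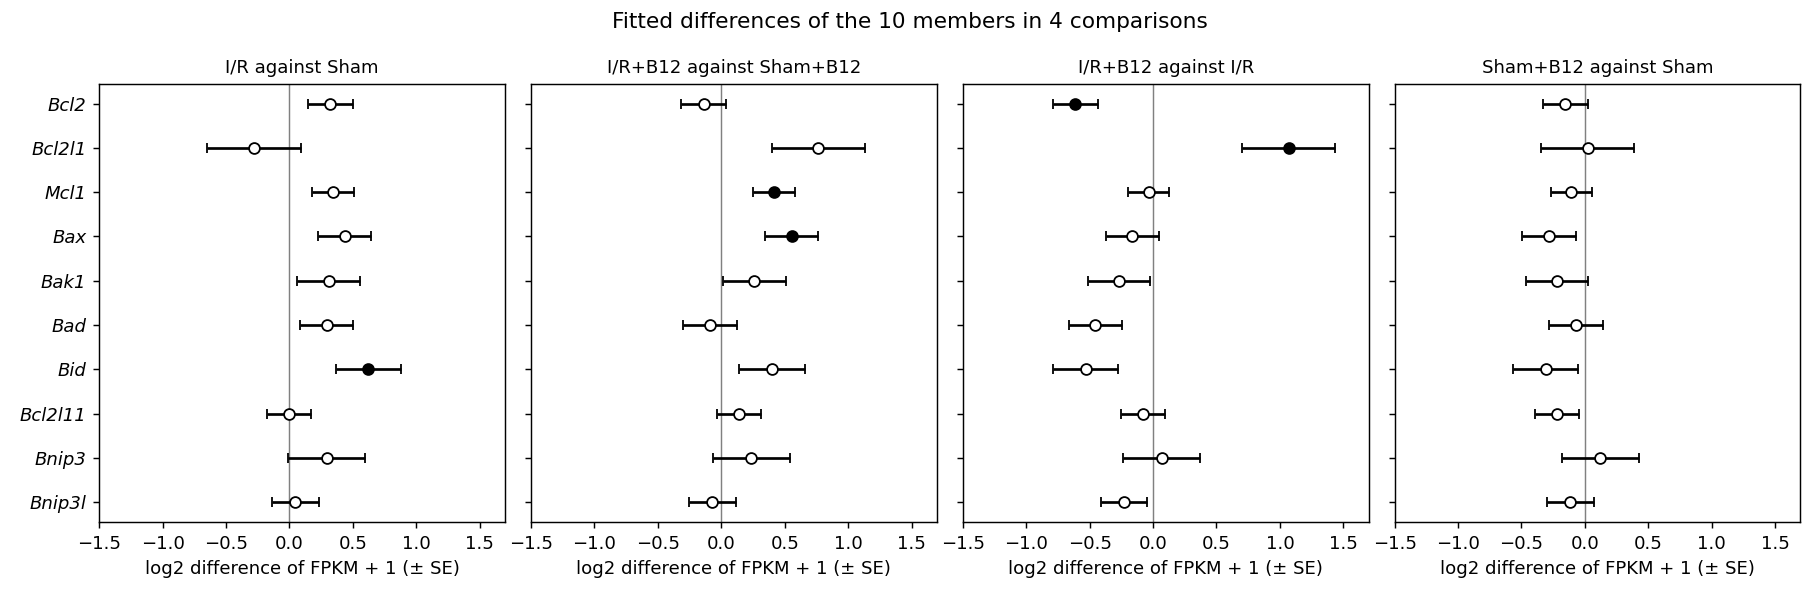
Fitted difference of each member on the log2(FPKM + 1) scale (horizontal axes, mean and SE from limma) in the 4 simple comparisons; filled points have an unadjusted p under 0.05 and no point passed the adjusted threshold. Bcl2l1 at 1.07 and Bcl2 at -0.61 in I/R+B12 against I/R are the differences farthest from 0 on either side.

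Because effectors and anti-apoptotic proteins act on each other, ratios of their transcripts within a library are given as descriptions, with no test. The ratio of Bax to Bcl2l1 was 0.973, 1.83 and 0.538 in Sham and 0.621, 0.835 and 0.960 in Sham+B12. It was 1.77, 1.45 and 1.73 in the I/R libraries and 1.19, 0.553 and 0.487 in the I/R+B12 libraries. The I/R libraries lay above all Sham+B12 and I/R+B12 libraries, but Sham 2 was higher than any of them. The ratio of Bax to Bcl2 ran the other way: it was 48.5, 34.6 and 15.6 in the I/R libraries and 50.3, 70.6 and 73.5 in the I/R+B12 libraries, with Sham and Sham+B12 between 27.1 and 37.6. The 3 I/R+B12 libraries had the highest values of the 12, and I/R 3 the lowest.

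**Figure D3:**
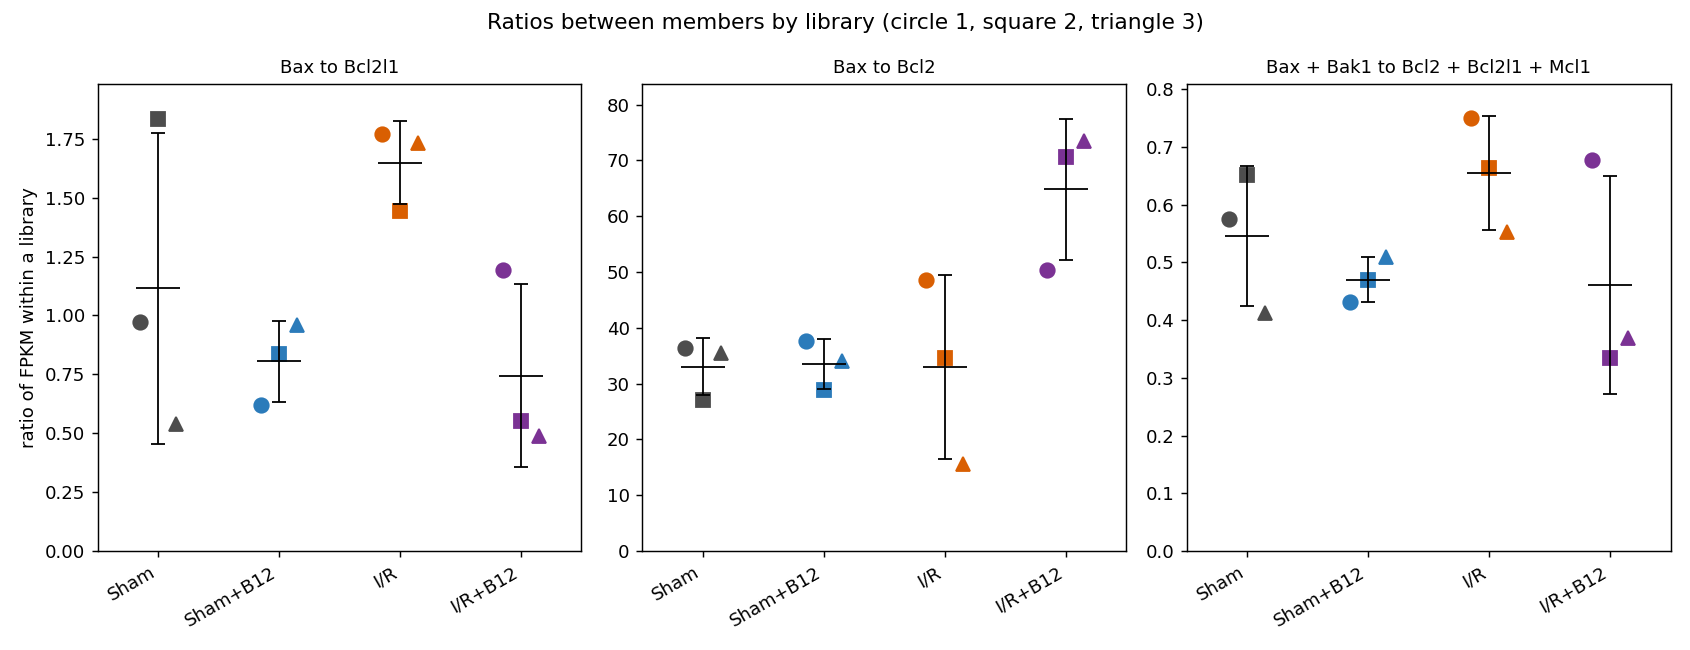
Ratios of FPKM within each library (vertical axes, linear from 0) in the 4 groups; points are libraries, horizontal bars the mean and whiskers the SD of 3 libraries. Bax to Bcl2l1 averages 1.65 in I/R against 0.744 in I/R+B12, while Bax to Bcl2 averages 32.9 and 64.8.

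Bcl2 carried little weight in the summed anti-apoptotic level, at 1.17%, 0.952%, 1.61% and 0.537% on average in Sham, Sham+B12, I/R and then I/R+B12. Mcl1 made up 61.0%, 59.5%, 70.7% and 53.6% of it. The sum of the 3 anti-apoptotic members was 91.1 ± 19.2, 85.1 ± 8.95, 99.0 ± 16.5 and 129 ± 27.3 FPKM (SD, n = 3). The sum of the effectors was 48.2 ± 1.64, 39.8 ± 1.51, 65.9 ± 19.7 and 56.5 ± 12.9 FPKM. Effectors over anti-apoptotic members gave 0.546 ± 0.122, 0.470 ± 0.039, 0.656 ± 0.099 and 0.460 ± 0.189, and in I/R+B12 library 1, at 0.677, stood apart from 0.334 and 0.369.

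Members varied together across the 12 libraries in some pairs, on the log2(FPKM + 1) scale. Of 45 pairs, 5 had a Pearson correlation with an adjusted permutation p under 0.05, 4 of them positive. How many pairs of other genes would pass the same test was not computed, so this count has no background beside it. The permutation shuffled all 12 libraries across the groups, so differences between groups enter these p-values. Bcl2l1 and Bcl2 ran in opposite directions, with r = -0.848 (permutation p = 0.0005, adjusted p = 0.011) and Spearman's rho = -0.753 (permutation p = 0.0062, adjusted p = 0.049). The r was -0.708 without the 2 libraries farthest from the median of Bcl2, I/R 3 and I/R+B12 3, and -0.912 after group means were removed. Bax and Bid were high in the same libraries, with r = 0.903 (adjusted permutation p = 0.0076) and rho = 0.821 (adjusted permutation p = 0.03). That r was 0.779 without I/R 1 and I/R 2 and 0.866 after group means were removed. Bid also correlated with Bad (r = 0.783, rho = 0.747, adjusted permutation p of rho 0.049). For Bak1 with Bid (r = 0.857, rho = 0.635) and Bax with Bak1 (r = 0.819, rho = 0.629), the adjusted permutation p of rho was 0.12. By rho and not by r, the adjusted permutation p was under 0.05 for Bcl2 with Bad (rho = 0.820, p = 0.03). The same held for Mcl1 with Bax (rho = 0.818, p = 0.03) and Mcl1 with Bid (rho = 0.779, p = 0.045). The points of every pair share their libraries, and so their cell composition and depth, whose part in these correlations was not tested.

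**Figure D4:**
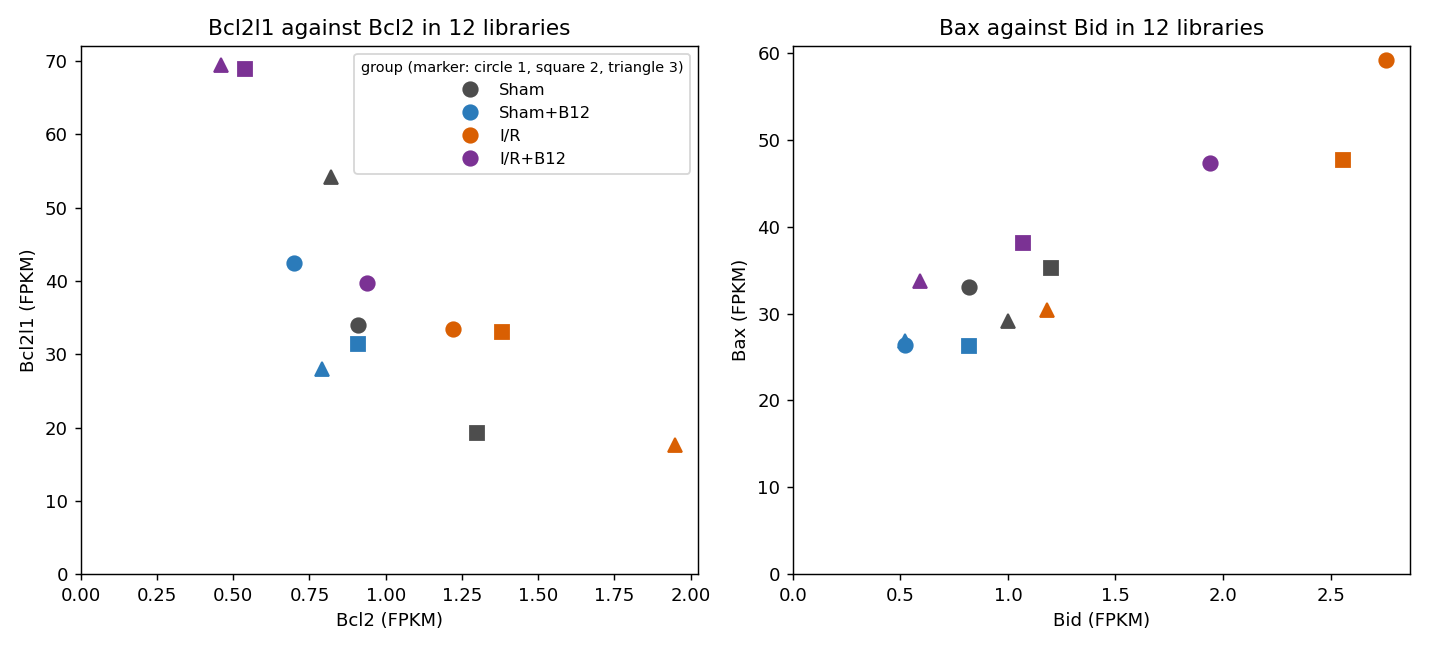
Bcl2l1 against Bcl2 (left) and Bax against Bid (right) in FPKM on linear axes from 0; each point is 1 of the 12 libraries, coloured by group. On the left I/R+B12 2 and 3 (69.0 and 69.5 FPKM of Bcl2l1) and I/R 3 (17.6 FPKM) are the ends, and on the right I/R 1 and 2 are the highest for both genes.

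The genes whose pattern over the 12 libraries was most like a member were taken from 11818 genes by Pearson r of log2(FPKM + 1), as a description. Among the anti-apoptotic members they were Adgrg1 for Bcl2l1 (r = 0.972) and Hif1a for Mcl1 (r = 0.983), the last followed by Runx1 and Bach1. For the effectors they were Trim27 for Bax (r = 0.973) and Cnot9 for Bak1 (r = 0.965). For the BH3-only members they were Commd7 for Bad (r = 0.972), Snx1 for Bid (r = 0.982) and Pxk for Bcl2l11 (r = 0.858). For the receptors they were Lman1l for Bnip3 (r = 0.916) and Magohb for Bnip3l (r = 0.854). The 2 steadiest members, Bcl2l11 and Bnip3l, had the lowest r with their nearest gene.

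A few other genes of the pathway passed the test, all in comparisons of I/R with sham. Of 17 other BCL-2 relatives, 12 were tested, and between I/R+B12 and Sham+B12 1 rose and 1 fell, where 10.4% of all genes were called. Bcl2a1b, a copy of the anti-apoptotic A1 gene of blood cells, rose from 1.02 ± 0.351 to 10.9 ± 9.27 FPKM (SD, n = 3), by 2.27 on the log2 scale (limma adjusted p = 0.0495). It has near-identical copies, so the assignment of its reads is uncertain, and the neutrophil markers summed to 97.0 to 1960.3 FPKM in the same I/R+B12 libraries, whose part in this rise was not tested. Bcl2l12, a divergent relative, fell from 8.34 ± 0.601 to 3.81 ± 2.50 FPKM, at -1.08 (adjusted p = 0.0376). Median differences of this list were 0.09 in this comparison and -0.35 in I/R+B12 against I/R, where the all-gene median was -0.21 and no gene was called.

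Among 15 outer-membrane partners, BAD kinases and related regulators, all tested, 1 rose in I/R+B12 against Sham+B12, a share below the 10.4% of all genes. Ywhaz, an adaptor of the family that holds phosphorylated BAD in the cytosol, rose from 37.2 ± 1.61 to 74.2 ± 16.1 FPKM, by 0.96 (adjusted p = 0.0227). Over both waters it rose by 0.76 (adjusted p = 0.0176), and Mdm2, the ubiquitin ligase of p53, rose by 0.35 (adjusted p = 0.0332). Of 14 downstream genes, all tested, 0 were called in I/R+B12 against Sham+B12, where 3 had an unadjusted p under 0.05 and Birc3, an inhibitor of apoptosis, came nearest at 1.44 (adjusted p = 0.0544). Over both waters, where 10.1% of all genes were called, 1 of the 14 rose: Xiap, which blocks caspases, by 0.45 (adjusted p = 0.0429). Of 14 genes of the mitophagy machinery, 13 were tested and 1 fell, Optn, an autophagy receptor, from 38.3 ± 0.739 to 25.1 ± 2.86 FPKM in I/R+B12 against Sham+B12, at -0.60 (adjusted p = 0.0269). Over both waters Optn was at -0.38 (adjusted p = 0.0333) and Bcl2a1b at 2.00 (adjusted p = 0.0298).

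Each of these calls depended on single libraries. The 4 in I/R+B12 against Sham+B12 were lost without Sham+B12 1 (adjusted p 0.0942 to 0.144), without Sham+B12 2 (0.0616 to 0.1), without Sham+B12 3 (0.0931 to 0.127) and without I/R+B12 2 (0.0652 to 0.167). The 5 over both waters were lost without any 1 of Sham 1, Sham+B12 1, Sham+B12 3, I/R 1 and I/R 2. Some were also lost with other processing. Mdm2 was lost with median-ratio scaling (adjusted p = 0.126) and quantile normalization (0.142), and Xiap with the same (0.064 and 0.076) and with no filter (0.0844). Both were also lost without Sham 3 and I/R 3, at an adjusted p of 0.0519 for Mdm2 and 0.0649 for Xiap. Over both waters, Optn (0.0568) and Bcl2a1b (0.0759) were lost with no filter. In I/R+B12 against Sham+B12, Bcl2l12 and Bcl2a1b were lost with no filter (0.0856 and 0.118) and with the compared groups alone (0.111 and 0.0649), and Optn with the latter (0.066). Bcl2a1b was also lost there with no variance trend (0.0504) and with library weights (0.0802). In the other 5 comparisons 0 genes of these lists were called. The genes with the smallest p of each list were, for I/R+B12 against I/R, Bcl2l12 at -1.17 (adjusted p = 0.0788), Casp9, the initiator caspase, at -0.63 (adjusted p = 0.0952), Trp53 at -0.83 (adjusted p = 0.112) and Map1lc3a, an autophagosome protein, at 0.50 (adjusted p = 0.0857).

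Exons of Bcl2, Bak1, Bad, Bid and Bnip3 overlap those of a gene on the opposite strand, and those of Bax overlap another gene on the same strand. Whether fragments were counted by strand is not given in the sources used here, so reads of the shared exons of these 6 members cannot be assigned with certainty. Bcl2l1, Mcl1, Bcl2l11 and Bnip3l have no such overlap.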

How the data were processed

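RNA of 12 mouse heart libraries (poly(A)-selected, paired-end) was measured in 4 groups of 3. The authors deposited a table of 55487 genes in FPKM, with a column per library. HISAT2, StringTie and mm10 are named in the submitters' processing notes, with no versions. The annotation release and use of strand are not given in the sources used here. Positions are from GENCODE M21, where 55141 of the IDs were found. Depth was estimated from the steps of low FPKM values (82.8% to 87.9% within 0.15 of a whole fragment).

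Log2(FPKM + 1) values of 13001 genes (FPKM of at least 1 in 3 or more libraries) were fitted in limma 3.58.1 (R 4.3.3) with a variance trend, all 12 libraries together. The fit was tested on simulated data. Tests were two-sided, with Benjamini-Hochberg adjustment within each of 7 comparisons and a threshold of 0.05. Fold changes on this scale understate those of low genes. Correlations used 100000 resamples (scipy 1.17.1). Figures were drawn with matplotlib 3.10.9.

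The members and gene lists were chosen with earlier results of these data known. Members with an unadjusted p under 0.05, or else the smallest p, are given by value in each comparison, with ranges for the rest. Of each list at most the 3 called genes, or else the gene with the smallest p, could be named, and for likeness up to 3 genes per member. Some genes that this rule names are left out here. Alternatives were quantile normalization, a pseudocount of 0.1, median-ratio scaling, a filter at an FPKM of 5, no filter, the compared groups alone, no variance trend, library weights, a replicate block, each library left out in turn, and leaving out Sham 3 and I/R 3.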

Additional observations from a re-analysis of the deposited data

How the results depend on the processing

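In the main fit, 0 members were called in each of the 7 comparisons, and the count stayed at 0 in every alternative for Sham+B12 against Sham and for the interaction. Elsewhere it moved. In I/R against sham over both waters, 1 member (Bax) was called with a filter at an FPKM of 5, with quantile normalization and with the replicate block (adjusted p = 0.0401), where 13.9%, 10.3% and 10.2% of all genes were called, and 4 without Sham 3 and I/R 3 (Bax, Mcl1, Bid and Bnip3), with 18.1% of genes. In I/R+B12 against Sham+B12, 1 member (Bax) was called with median-ratio scaling (14.7% of genes) and without Sham 3 and I/R 3 (13%). Library weights, whose estimation stopped before it converged, gave 6 members for I/R against Sham, 4 for I/R over both waters, 5 for I/R+B12 against I/R, and 5 for B12 over both operations, with 33.9%, 36.4%, 33.3% and 25% of all genes called. Leaving out 1 library gave 0 to 1 for I/R+B12 against Sham+B12, 0 to 3 for I/R over both waters, 0 to 4 for I/R+B12 against I/R, and 0 to 3 for B12 over both operations. No difference named with its own adjusted p changed sign where it was recomputed, and the cause of the moved counts was not tested. After group means were removed, same-number libraries had a mean r of 0.014 over 18 pairs (-0.412 to 0.391). Libraries of different numbers had a mean r of -0.009 over 36 pairs (-0.364 to 0.312). These means cannot tell whether replicate numbers were pairs, since r varied widely within both sets. The replicate block otherwise called 0 members. With a pseudocount of 0.1 and with quantile normalization, Bid was at 0.96 and 0.43 in I/R against Sham, and over both operations Bcl2 was at -0.71 and -0.20 and Bid at -0.74 and -0.23 with B12. Counting error at the estimated depth, taken for the longest transcript, reached 19.1% for Bid and 10.6% for Bcl2. It would be larger if the fragments came from shorter transcripts.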
